A study of Mus musculus with 12 samples.

Results

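The liver genes that carry tryptophan to NAD were followed in 12 mouse liver RNA-seq libraries, as a set of 10 among the 46882 gene names of the deposited count table. The set holds Tdo2, Afmid, Kmo, Kynu, Haao, Acmsd, Qprt, Nadsyn1, Nampt and Aadat, which were selected on their place in the pathway and by the comparison of A1cf -/- with wild-type livers, in which Acmsd differed most. Their values in that comparison are therefore a description and support nothing. All 10 were among the 13706 genes with enough counts to be tested. The libraries came from livers of C57BL/6 mice aged 6 to 8 weeks, flash frozen, 6 from wild-type (WT) and 6 from A1cf -/- (KO) animals, each a biological replicate. The allele that makes the KO, the sex of the mice and their feeding state were not given in the labels, and no cell type restriction of the loss was stated. A1cf encodes an RNA-binding protein known as a partner of the APOBEC1 enzyme in the editing of Apob mRNA.

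Liver is the main site where dietary tryptophan is turned into NAD. TDO2 opens the indole ring, the formamidase AFMID, KMO and KYNU carry the product along the kynurenine chain, and HAAO makes an unstable semialdehyde. That semialdehyde closes by itself to quinolinate, which QPRT turns into a nicotinate nucleotide on the way to NAD, unless the decarboxylase ACMSD takes it first and sends the carbon to oxidation. NADSYN1 adds the last amide group, NAMPT recycles nicotinamide by a separate route, and the aminotransferase AADAT diverts kynurenine to kynurenic acid.

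The promoter window of Tdo2 is shown because Tdo2 was called by library number, in edgeR with genotype in the model and all libraries. In the edgeR fit used below for genotype, 0 of the 10 passed. Acmsd passed by genotype with the number range added to that model (edgeR adjusted p = 0.0154) or with a mean of at least 1 CPM required (0.0465). It did not pass in edgeR with no filter on low counts (adjusted p = 0.12) or with library totals alone (0.0588). The window runs from 250 bases before to 50 bases after the RefSeq transcript start, on build GRCm38.p6. It is chr3:81975679-81975978 on the minus strand. Capitals mark matches to the motifs searched, on either strand.

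Tdo2: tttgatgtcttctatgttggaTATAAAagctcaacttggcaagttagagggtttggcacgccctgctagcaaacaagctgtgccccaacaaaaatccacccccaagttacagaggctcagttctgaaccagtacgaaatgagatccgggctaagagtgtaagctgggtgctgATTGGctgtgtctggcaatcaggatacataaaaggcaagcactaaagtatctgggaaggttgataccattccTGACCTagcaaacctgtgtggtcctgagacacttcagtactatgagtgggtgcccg

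The Tdo2 window held the nuclear receptor half-site AGGTCA 6 bases before the start, a TATAAA match 229 bases before it and a CCAAT match 78 bases before it. The deposited annotation begins Tdo2 further upstream, at base 81976202 of chromosome 3, so the distances hold for the RefSeq start only. Over all 32851 RefSeq promoter windows of this length, 16.3% held AGGTCA, 13.6% TATAAA and 37.4% CCAAT on either strand. The glucocorticoid receptor half-site AGAACA (19% of windows) and the HNF1 half-site GTTAAT (7.1%) had no match in this window. These are matches of letters, not binding sites.

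Library depth ran from 22129092 to 51082317 assigned fragments. A1cf stood at 50.8 ± 2.26 CPM (counts scaled to library size) in WT (SD, n = 6, range 47.9 to 53.8) and at 10.6 ± 1.55 in KO (n = 6, range 8.20 to 12.6), with no overlap. Of 9 hepatocyte markers, 0 differed between genotypes in the adjusted edgeR test, in DESeq2 or in limma-voom. All 9 had a log2 fold change below 0 (median -0.14), and 2 had an unadjusted p under 0.05 in edgeR, against 21.2% of all tested genes. Among non-parenchymal markers, Stab2 of sinusoidal endothelium (0.48 on the log2 scale) and Lrat (0.68) and Pdgfrb (0.44) of stellate cells rose in KO. These were 1 of 8 and 2 of 9 markers called, against 3.82% of all tested genes. All 8 and all 9 had log2 fold changes above 0 (medians 0.26 and 0.50). The summed markers of Kupffer cells stood at 122 to 200 CPM in WT and 126 to 444 in KO, all 10 higher on average in KO. Of the 10, 0 were past the threshold in edgeR or limma-voom, 9 had an unadjusted edgeR p under 0.05 and 3 were called by DESeq2. Over all 13706 tested genes, DESeq2 called 1175 and limma-voom 573. The part of these cell types in the results below was not tested. Kidney tubule markers, of interest because Acmsd is also a kidney gene, summed to at most 0.0410 CPM in WT and 0.393 in KO. In such bulk tissue, fewer cells of a type and less RNA per cell cannot be told apart. Acute phase genes were high in WT 590, WT 601, KO 588, KO 591 and KO 602 (mean log2(CPM + 1) of 12 genes from 10.1 to 12.8) and stood at 7.76 to 8.58 in the other libraries. The titles number the libraries 573 to 602 (3 WT, 5 KO) and 776 to 780 (3 WT, 1 KO), and the labels do not say what the numbers mean.

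Per kilobase of exon, Tdo2 was the highest of the 10 genes and Acmsd the lowest in WT liver. The length takes in every exonic base annotated for a gene, so the order between genes rests on that annotation. Tdo2 stood at 651 ± 175 CPM per kb in WT (SD, n = 6) and Haao, the enzyme just before the branch, at 256 ± 49.0, and their ranges did not overlap. Aadat (78.8 ± 8.44) and Kmo (70.2 ± 5.01) overlapped in range with each other and lay below Haao. Qprt followed at 53.6 ± 5.05, below Kmo and above Kynu (26.2 ± 4.49) with no overlap on either side. Kynu, Nampt (16.6 ± 2.57) and Afmid (14.05 ± 1.40) overlapped in turn with the next. Nadsyn1 stood at 8.03 ± 0.789, below every WT library's Afmid level, and overlapped with Acmsd at 4.63 ± 2.18. In KO the order was the same at the top, while Acmsd at 13.6 ± 8.93 CPM per kb stood above Nadsyn1 at 6.82 ± 0.696 with no overlap. The level of Afmid per kb is a lower bound, because 44.2% of its exonic length lies in the overlapping gene Gm20708 and fragments in a shared stretch are by the counter's default not assigned.

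**Figure D1:**
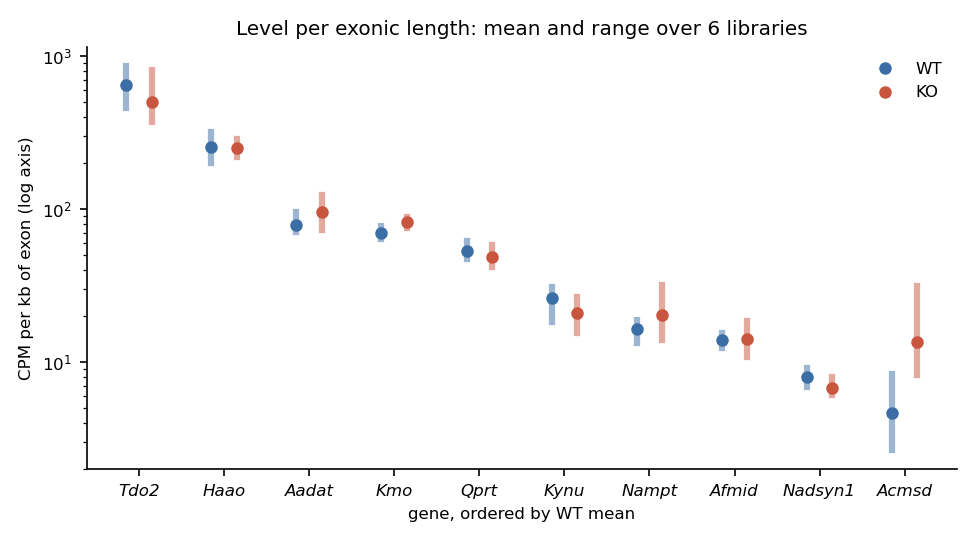
Level of each gene per kilobase of exon (CPM per kb, log axis) in WT (blue) and KO (red), with dots for the mean and bars for the range over 6 libraries. Tdo2 was highest at 651 CPM per kb in WT, and Acmsd went from 4.63 in WT to 13.6 in KO.

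Between genotypes, 0 of the 10 genes passed an adjusted p of 0.05 by the quasi-likelihood test of edgeR (Benjamini-Hochberg over all tested genes), against 3.82% of all tested genes, of which 1.72% were higher and 2.09% lower in KO. At an unadjusted p under 0.05 there were 5 of the 10, against 21.2% of all tested genes. The 2 genotypes overlapped in CPM for each of the 10 genes, while 3.3% of all tested genes had ranges that did not overlap. Nothing is read from these counts, since the set was selected on this comparison. DESeq2 called 2 of the 10, Acmsd and Kmo, and limma-voom called Acmsd alone.

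**Figure D2:**
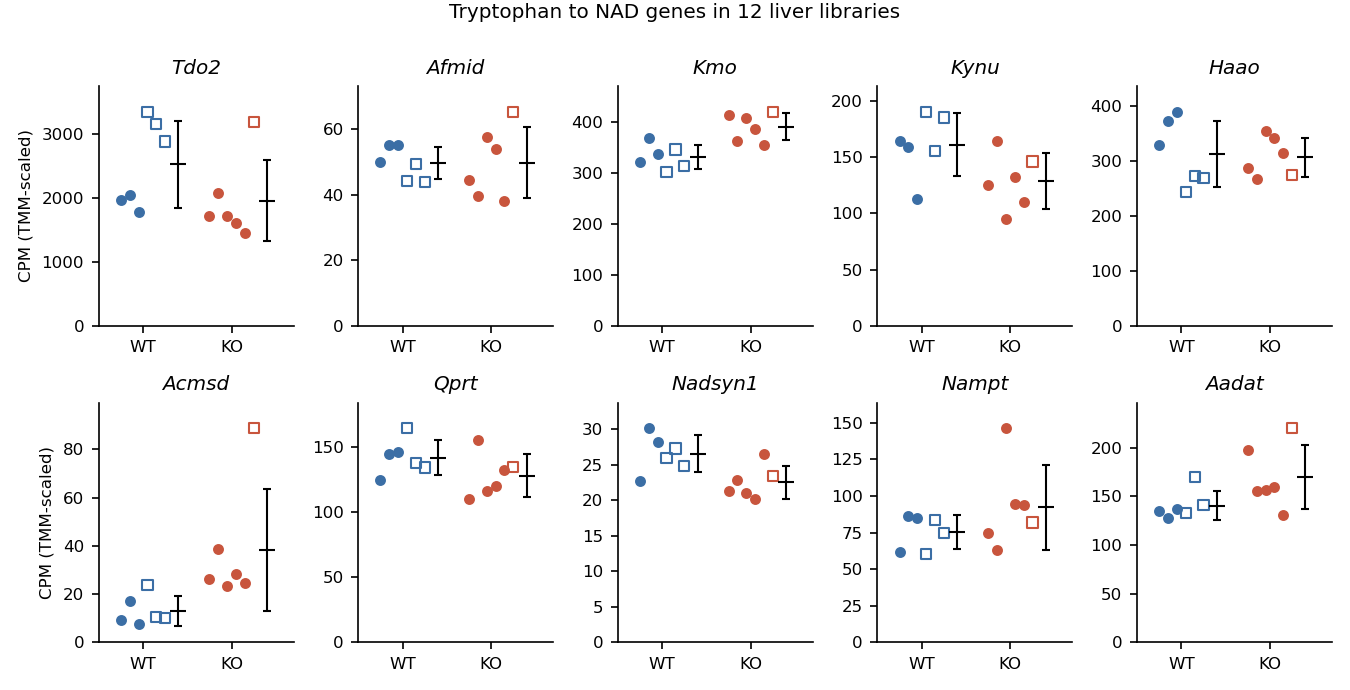
CPM of each gene in 6 WT (blue) and 6 KO (red) libraries, with filled circles for libraries numbered 573 to 602, open squares for 776 to 780, and black bars for mean ± SD. Acmsd was 23.5 or more in every KO library and 23.8 or less in every WT library, with KO 780 at 88.8.

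Acmsd (chr1:127729413-127767978, plus strand, mm10), the decarboxylase that draws the semialdehyde away from NAD, had the largest difference of the set. Its WT libraries held 7.55 CPM at the lowest, 10.4 at the median and 23.8 at the highest. Its KO libraries held 23.5 at the lowest, 27.3 at the median and 88.8 at the highest. The groups overlapped by 1 library on each side, KO 588 at 23.5 and WT 776 at 23.8. The log2 fold change was 1.55 (SE 0.40), or 2.93-fold higher in KO, with an adjusted p of 0.0521 in edgeR's test. Its counts ran from 184 in WT 601 to 2112 in KO 780, so counting error is small beside the spread between mice. Without KO 780 the log2 fold change was 1.11 (edgeR adjusted p = 0.0574), and without WT 776 it was 1.80 (0.0346, past the threshold). Of the 12 fits that left out 1 library, only 1 passed, and the adjusted p ran from 0.0346 to 0.121 in edgeR. Acmsd also missed the threshold with library totals (0.0588) and no filter on low counts (0.12). The same held for libraries 573 to 602 alone (0.0953) and the deepest library of each genotype left out (0.129, all adjusted p in edgeR). Within libraries 573 to 602 the mean log2 CPM was 1.38 higher in KO than in WT (23.5 to 38.7 CPM in KO, 7.55 to 17.1 in WT). In 776 to 780 the single KO library was 2.69 higher (88.8 CPM, against 10.2 to 23.8 in WT).

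Around the semialdehyde branch, Acmsd can be set against Qprt, which acts on the NAD side. Qprt (chr7:127107114-127122226, minus strand) held 125 to 164 CPM in WT and 110 to 155 in KO, a log2 fold change of -0.15 (SE 0.09). Per kb, Acmsd was 8.46% ± 3.21 of the Qprt level in WT (SD, n = 6, 4.84 to 13.5) and 27.6% ± 16.8 in KO (17.5 to 61.6). The groups did not overlap in this ratio, which is a description that follows from the choice of Acmsd. Haao (chr17:83831356-83846790, minus strand), which feeds the branch, held 244 to 389 CPM in WT and 267 to 354 in KO, a log2 fold change of -0.03 (SE 0.13). Acmsd shares 94 bases, or 3.32% of its exonic length, with 2900009J06Rik on the opposite strand, a gene with 73 counts over all 12 libraries.

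Upstream of the branch no gene passed the edgeR test. Tdo2 (chr3:81957090-81976202, minus strand, mm10), the entry enzyme, held 1771, 2462 and 3342 CPM in WT at the lowest, median and highest, and 1444, 1717 and 3176 in KO. Its log2 fold change was -0.37 (SE 0.22, edgeR adjusted p = 0.349), and with the number range in the model it was -0.11. Kmo (chr1:175620381-175662116, plus strand), the mitochondrial hydroxylase, held 303, 330 and 368 CPM in WT and 356, 396 and 420 in KO. Its log2 fold change was 0.24 (SE 0.08, edgeR adjusted p = 0.114), and its coefficient of variation, 7.14% in WT and 6.93% in KO, was the smallest of the set in each genotype. Kynu (chr2:43555329-43682715, plus strand), which cleaves hydroxykynurenine, had a log2 fold change of -0.32 (SE 0.14), with WT at 113 to 190 CPM and KO at 95.4 to 164. Afmid (chr11:117825924-117839908, plus strand), the formamidase, was at 49.7 ± 4.97 CPM in WT and 49.8 ± 10.9 in KO (SD, n = 6 each).

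The remaining 3 genes belong to amidation, salvage and the kynurenic acid branch. Nadsyn1 (chr7:143795584-143822849, minus strand, mm10) held 22.8 to 30.2 CPM in WT and 20.1 to 26.6 in KO, a log2 fold change of -0.24 (SE 0.09, edgeR adjusted p = 0.136). Nampt (chr12:32820335-32853369, plus strand) held 60.3 to 86.2 CPM in WT and 63.1 to 146 in KO, a log2 fold change of 0.29 (SE 0.18), with KO 588 at 146 above every other library. Aadat (chr8:60506124-60545677, plus strand) held 127 to 170 CPM in WT and 130 to 220 in KO, a log2 fold change of 0.27 (SE 0.12, edgeR adjusted p = 0.208).

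**Figure D3:**
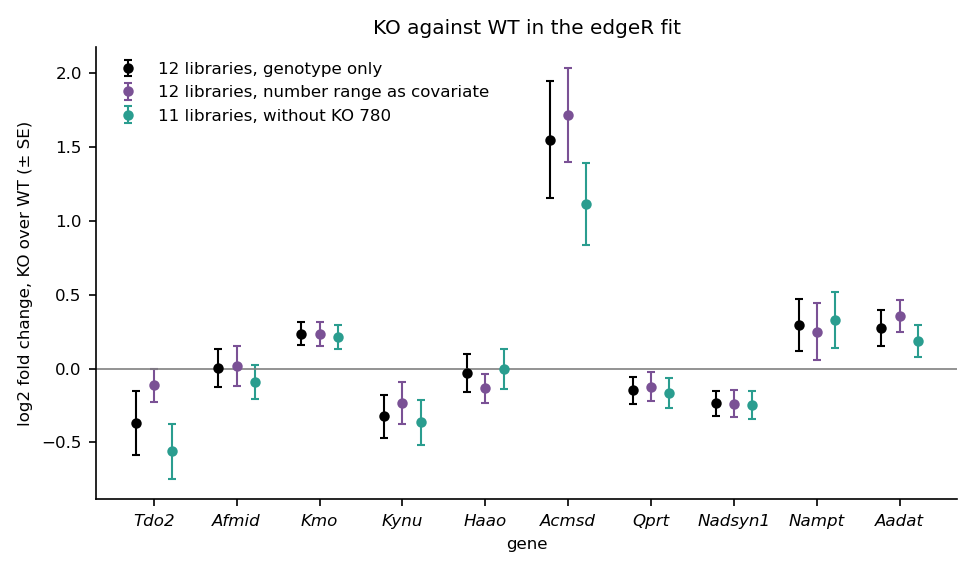
Log2 fold change of KO over WT (± SE) of each gene in the edgeR fit of 12 libraries (black), with the number range as a covariate (purple) and without KO 780 (green). Acmsd was 1.55, 1.72 and 1.11 in the 3 fits, while Tdo2 was -0.37, -0.11 and -0.56.

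In the rest of tryptophan and NAD metabolism, edgeR called 1 gene between genotypes over lists of 13, 11 and 22 tested genes. Over all tested genes it called 3.82%. Of 13 other tryptophan and kynurenine genes tested, 0 passed edgeR's test and 3 had an unadjusted p under 0.05, against 3.82% and 21.2% of all tested genes. The list median log2 fold change was -0.10, against 0.01 over all tested genes. The smallest p-values there belonged to Got2, a mitochondrial aminotransferase (-0.27, edgeR adjusted p = 0.0748), and Slc3a2, the heavy chain of amino acid transporters (-0.29, edgeR adjusted p = 0.0756). Of 11 other NAD synthesis and transport genes, 0 passed and 2 had an unadjusted p under 0.05, again near the share over all genes, with a median of 0.00. Nmnat1, which makes NAD in the nucleus, was at -0.33 (edgeR adjusted p = 0.0604) and the NAD kinase Nadk at -0.23 (edgeR adjusted p = 0.193).

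Of 22 genes that use NAD or dispose of nicotinamide, Sirt5, a mitochondrial deacylase, fell by 0.47 on the log2 scale (SE 0.10, edgeR adjusted p = 0.018). Sirt5 held 11.1 to 14.4 CPM in WT and 7.88 to 10.8 in KO, with no overlap. It was the 1 gene of the 22 with no overlap, against 3.3% of all tested genes. Sirt5 passed in each of the 12 fits that left out 1 library. The call was not made with library totals alone (adjusted p = 0.0503), in libraries 573 to 602 alone (0.118) or without the deepest library of each genotype (0.085), all in edgeR. The other 21 did not pass, and 3.82% of all tested genes did. An unadjusted edgeR p under 0.05 was found for 5 of the 22 (22.7%), against 21.2% of all tested genes, and the list median was -0.05. DESeq2 called 5 genes over these 3 lists, Sirt5, Nmnat1, Got2, Slc3a2 and Parp14, and 1175 of all 13706 tested genes. No value of NAD itself or of any metabolite was measured.

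Among 8 transcription factors reported to act on these genes, Rxra, the shared partner of many nuclear receptors, fell by 0.31 on the log2 scale (edgeR adjusted p = 0.0459). It was the 1 call among the 8, against 3.82% of all tested genes. At an unadjusted edgeR p under 0.05 there were 2 of the 8 (25%), against 21.2% of all tested genes. Rxra held 482 to 590 CPM in WT and 412 to 448 in KO, the 1 of the 8 with no overlap, against 3.3% of all tested genes. Leaving out 1 library at a time kept that call only without WT 776, and the adjusted p ran from 0.0465 to 0.0995 in edgeR. It also missed the threshold with library totals (0.119), no filter on low counts (0.101), libraries 573 to 602 alone (0.157) and the deepest library of each genotype left out (0.176, all adjusted p in edgeR). On all 12 libraries Rxra was called by DESeq2 (adjusted p = 2.9e-05) and limma-voom (0.0372), which called 1175 and 573 of all 13706 tested genes. In edgeR it was also called with the number range as covariate (adjusted p = 0.0267), RLE scaling (0.0429) or a mean of at least 1 CPM required (0.0462). Of 12 targets of the fatty acid receptor PPARα, 10 glucocorticoid and fasting genes and 12 acute phase genes, 0 passed edgeR's test, DESeq2 or limma-voom. In each of these lists 0 had an unadjusted edgeR p under 0.05, against 21.2% of all tested genes. The list medians of log2 fold change were -0.18, 0.02 and 0.36. The smallest p-values belonged to Fgf21 (-1.62, edgeR adjusted p = 0.29) and Ehhadh (-1.10, 0.337), to G6pc (-1.19, 0.327) and Mt2 (0.75, 0.443), and to Fgb (0.31, 0.641) and Apcs (0.76, 0.75).

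Tdo2 split the libraries by number rather than by genotype. It held 1771 to 2047 CPM in WT 573 to 601 and 2877 to 3342 in WT 776 to 778, and it held 1444 to 2077 in KO 574 to 602 and 3176 in KO 780. The 8 libraries of the first range and the 4 of the second did not overlap. The share of all tested genes with no overlap between the number ranges was not counted, so nothing is read from this split. With genotype in the model, Tdo2 was 0.77 higher on the log2 scale in 776 to 780 (SE 0.12, edgeR adjusted p = 0.00555), higher in 4 of 4 libraries. This comparison was added after the values had been seen. It called 1 of the 10 genes, Tdo2, against 4.36% of all tested genes, of which 2.14% were higher and 2.23% lower. The call was lost without KO 780, where Tdo2 was at 0.70 (edgeR adjusted p = 0.0802) and 18 genes were called in all. It was also lost in the WT libraries alone, with Tdo2 at 0.71 (edgeR adjusted p = 0.0759) and 21 genes called.

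The next members in that comparison did not pass. Haao was at -0.37 (edgeR adjusted p = 0.0622), with WT at 328 to 389 CPM in the first range and 244 to 272 in the second. In KO, Haao held 267 to 354 CPM in the first range, and KO 780 at 275 lay within it. Acmsd was at 0.91 (edgeR adjusted p = 0.134), and at 0.38 without KO 780. Leaving out WT 590 put Acmsd past the threshold (1.19, edgeR adjusted p = 0.0486), and leaving out KO 584 did so for Haao (-0.39, edgeR adjusted p = 0.0337). The other 7 had adjusted p-values from 0.187 to 0.959 in edgeR.

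**Figure D4:**
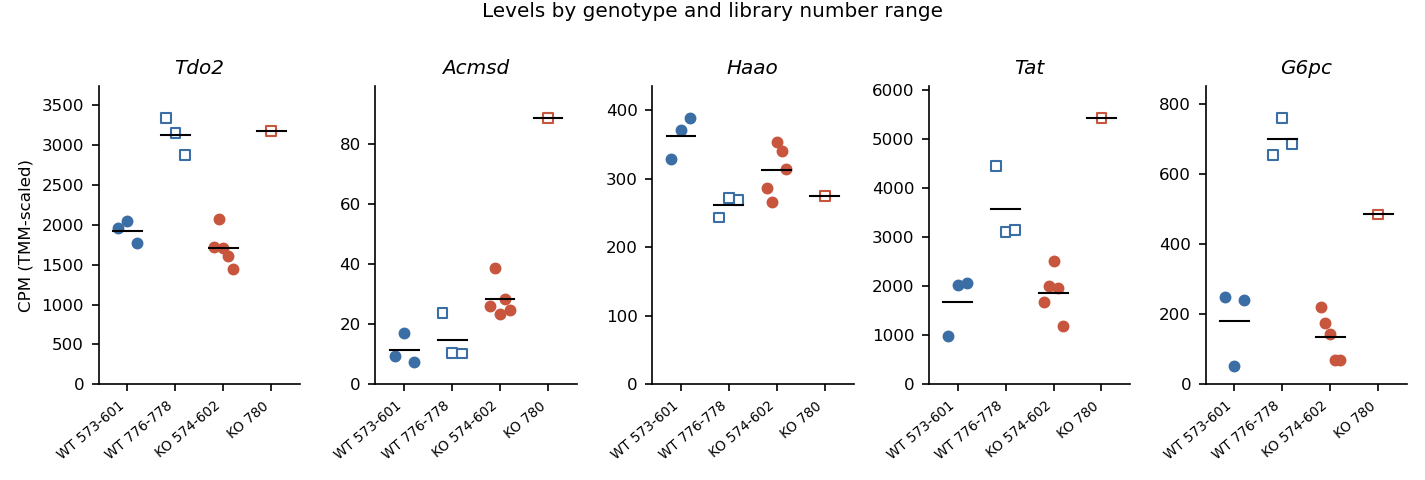
CPM of Tdo2, Acmsd, Haao, Tat and G6pc by genotype (blue WT, red KO) and library number range (circles 573 to 602, squares 776 to 780), with lines at the means. Tdo2 stood at 2877 or more in every library numbered 776 to 780 and at 2077 or less in every other.

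Some genes of the other lists also differed by number range, by which edgeR called 4.36% of all tested genes, 2.14% higher and 2.23% lower. Of 10 glucocorticoid and fasting genes, 4 were higher in 776 to 780 in edgeR: Tat (1.25), G6pc (1.92), Sds (0.84) and Igfbp1 (1.96, all log2). The other 6 did not pass, and of them Per1, Mt1 and Mt2 had values below 0 (-0.11, -0.69 and -0.53). Tat, a tyrosine aminotransferase induced by glucocorticoids as Tdo2 is, held 990 to 2514 CPM in the first range and 3111 to 5437 in the second. Of 12 PPARα targets, Pdk4 (1.85) and Angptl4 (0.58) were higher, and of 8 transcription factors the coactivator Ppargc1a (0.67). For these 3 lists DESeq2 called 5, 4 and 1 genes, and limma-voom 3, 1 and 0. Of 11 other NAD synthesis and transport genes, the mitochondrial NAD carrier Slc25a51 was higher (0.85) and Nmnat3 lower (-0.47). Of 22 genes that use NAD or dispose of nicotinamide, Parp10 was lower (-0.46). None of these genes passed without KO 780. Over all 13706 tested genes, 22.1% had an unadjusted edgeR p under 0.05 by number range, DESeq2 called 1405 and limma-voom 489. Of 13 other tryptophan and kynurenine genes, 0 passed in edgeR or limma-voom, 3 (23.1%) had an unadjusted edgeR p under 0.05 and DESeq2 called 2. Of 12 acute phase genes 0 passed in edgeR or limma-voom, 11 had an unadjusted edgeR p under 0.05, DESeq2 called 9, and their median was -2.19. The part of these genes in the Tdo2 result was not tested.

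Over the 12 libraries, with each genotype's mean taken away from log2 CPM, the 10 genes formed 45 pairs, of which 26 had a correlation above 0. After Benjamini-Hochberg adjustment over the 45, 0 pairs passed 0.05 by permutation within genotypes (100000 draws). By r, the smallest p-values belonged to 3 inverse pairs. Kynu and Haao had r = -0.75 and rho = -0.71 (permutation p = 0.0032 and 0.014, adjusted 0.081 and 0.1), Kynu and Nampt r = -0.76 and rho = -0.74 (permutation p = 0.0054 and 0.011, adjusted 0.081 and 0.1), and Tdo2 and Haao r = -0.80 and rho = -0.79 (permutation p = 0.0052 and 0.013, adjusted 0.081 and 0.1). Without the 2 libraries farthest from the median of the first gene the values of r were -0.57, -0.63 and -0.82, and within libraries 573 to 602 they were -0.75, -0.79 and -0.58. By rho, the smallest belonged to Kynu and Acmsd, with rho = 0.76 and r = 0.64 (permutation p = 0.0072 and 0.038, adjusted 0.1 and 0.19, r = 0.53 without WT 601 and KO 588). Afmid and Kmo had r = 0.75 and rho = 0.77 (permutation p = 0.0091 and 0.0092, adjusted 0.1 and 0.1). Their r was 0.635 without KO 780 and KO 602. Tdo2 and Acmsd had r = 0.75 and rho = 0.73 (permutation p = 0.017 and 0.0087, adjusted 0.13 and 0.1). For that pair r was 0.30 without KO 780 and WT 776, and 0.67 within the 8 libraries numbered 573 to 602, which hold neither.

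The genes whose deviations were most like those of Acmsd, among 11952 with a mean of at least 1 CPM, were Phc3 (r = 0.97), Smg1 (0.94), Prrc2c (0.93), Med13 (0.93) and Ep300 (0.93). The least like were Ptrh2 (-0.95), Igsf5 (-0.94) and Arl6ip1 (-0.93). These are the extremes of a search and are given with no test. The 5 most like have exonic lengths of 10840 to 21225 bases, against a median of 3747.5 over tested genes, and the 3 least like 2482 to 3132. Acmsd itself has 2831.

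A length pattern was measured in each library, as the median deviation of the longest 10% of tested genes minus that of the shortest 10%. It ran from -0.27 in WT 601 to 0.25 in KO 780 on the log2 scale. The pattern was chosen because the genes most like Acmsd are long, so its relation to Acmsd is a description with no test. Over the 12 libraries Acmsd had r = 0.77 and rho = 0.70 with it, and r was 0.59 without WT 601 and KO 780. For the other 9 genes r ran from -0.56 for Haao to 0.64 for Tdo2. The part of the length pattern in the level of Acmsd between genotypes was not tested.

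**Figure D5:**
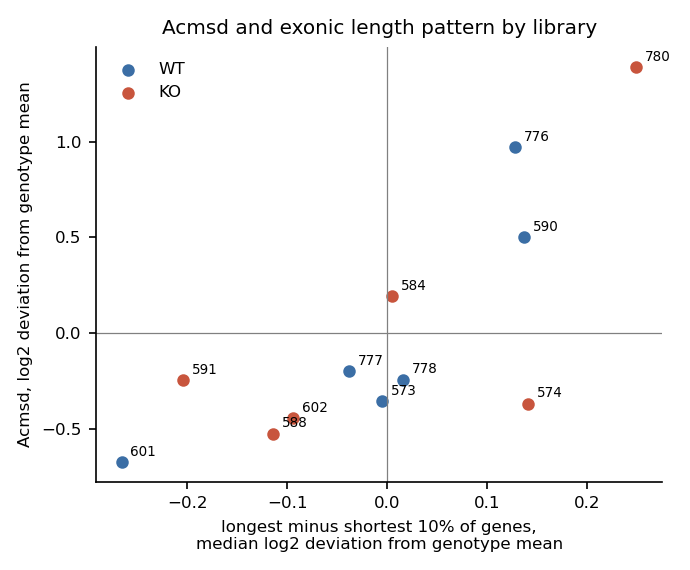
Deviation of Acmsd from its genotype's mean (log2) against the length pattern of each library, for WT (blue) and KO (red), labelled by library number. KO 780 is highest on both axes and WT 601 is lowest on both.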

How the data were processed

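Liver RNA was extracted with a miRNeasy kit and made into TruSeq libraries, per the labels' protocols. The authors' deposited table gives raw fragment counts for each gene name. They come from featureCounts 1.5.0-p2, run over exons without a strand option, per the file headers. STAR, DESeq2 and mm10 are named in the submitters' processing notes. The deposited table also gives an exonic length per gene, another value used for levels per kb and the length pattern.

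The tests used edgeR 4.0.16 under R 4.3.3. Genes were kept by filterByExpr (minimum count 10), scaled by TMM and tested by the robust quasi-likelihood test with genotype alone in the model. The Benjamini-Hochberg adjustment covered 13706 genes, with 0.05 as threshold. Standard errors were taken as the log2 fold change over the root of F. TMM-scaled CPM are given, and log2 CPM used a prior count of 2. A second fit, added after values were seen, compared the library number ranges with genotype in the model. DESeq2 1.42.0 and limma 3.58.1 were alternatives, as were other scalings, filters and left-out libraries. Correlations were permuted within genotypes. The fit was also run on simulated counts with planted genotype changes. That simulation held no pattern by library number, acute phase or gene length, so it cannot speak to those.

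The 10 genes and all lists were chosen with earlier results of these data known. Named genes are the 10, every listed gene past the threshold or else the 2 with the smallest p per list, and the 5 most and 3 least like Acmsd. Depth ran from 22129092 to 51082317 counts, and 3 counts equal 0.0590 to 0.131 CPM.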

Additional observations from a re-analysis of the deposited data

Results flagged for a closer look

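In 4 of the 20 groups formed by the 10 genes and 2 genotypes, 1 library stood apart from the other 5 by more than 0.625 of the group's range, the 95% limit of Dixon's test for 6 samples. Chance flags about 1 in 20 groups. KO 780 was the high library for Tdo2, at 3176 CPM against 2077 in the next, and for Acmsd, at 88.8 CPM against 38.7. KO 588 was high for Nampt, at 146 CPM against 94.2, with a gap of 0.626 of the range that is barely past the limit. WT 777 was high for Aadat among WT libraries, at 170 CPM against 141.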

How the results depend on the processing

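No paired analysis was run, because the labels do not say whether any WT and KO animals belong together. The number of genes called between genotypes, 523, was 1175 with DESeq2, 57 in libraries 573 to 602 alone and 206 without the deepest library of each genotype, and ran from 266 (without WT 777) to 638 (without WT 590) when 1 library was left out. Other low counts came without WT 573 (312), WT 778 (294), KO 574 (315), KO 588 (319) or KO 591 (324). With library totals in place of TMM, 405 genes were called, 266 higher and 139 lower, against 236 higher and 287 lower. Of the 10 pathway genes, 0 passed in the first edgeR fit, with genotype alone and all libraries (5 at an unadjusted p under 0.05). In edgeR, 1 passed with a mean of at least 1 CPM required or with the number range as covariate (Acmsd, adjusted p = 0.0465 and 0.0154). Acmsd also passed with limma-voom (adjusted p = 0.0439), and 2 passed with DESeq2 (Acmsd and Kmo). Leaving out 1 library gave 0 to 1, with an edgeR adjusted p of Acmsd from 0.0346 to 0.121. Acmsd did not pass in edgeR with library totals (adjusted p = 0.0588) or no filter on low counts (0.12). Nor did it pass in libraries 573 to 602 alone (0.0953) or without the deepest libraries (0.129, both adjusted p in edgeR). The log2 fold change of Acmsd stayed between 1.11 and 1.80 under every alternative. Of the other tryptophan and NAD genes, of which edgeR called 1 with all libraries, the count was 0 with library totals, in libraries 573 to 602 alone and without the deepest libraries, 5 with DESeq2, and 1 to 2 with 1 library left out. By number range, the 598 genes called became 1405 with DESeq2 and 21 in WT alone, and 18 (without KO 780) to 883 with 1 library left out, with 263 without WT 601, 179 without WT 776, 220 without WT 778 and 392 without KO 591. The 1 pathway gene called became 3 with DESeq2 (Tdo2, Acmsd and Haao), 0 in WT alone, and 0 to 2 with 1 library left out. The cause of these changes was not tested, except that fits on fewer libraries have fewer replicates. The levels per kb moved by less than 1 SD with library totals or with medians. Only 1 KO library lies in the second number range, and depth does not limit the 10 genes, the lowest of which had 184 counts.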
